A study of Rattus norvegicus with 8 samples.

Results

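The corticosteroid pathway of the kidney was examined through 10 genes: the glucocorticoid receptor Nr3c1, the mineralocorticoid receptor Nr3c2, the 11-beta-hydroxysteroid dehydrogenases Hsd11b1 and Hsd11b2, and 6 genes that glucocorticoids or aldosterone induce (Fkbp5, Tsc22d3, Sgk1, Zbtb16, Nfkbia and Dusp1). They were chosen by name, with earlier results of these data known. Every array probe whose gene symbol matched was taken, which gave 17 of the array's 41012 gene probes. All 10 genes were among the 19868 tested. The samples were right kidneys of male rats of the inbred strain F344/NSlc, 10 weeks old. There were 4 rats whose other kidney had been removed (nephrectomized) and 4 that had a sham operation, with 1 array each. The series text gives 2 days between the operation and sampling for all rats, whereas the source labels give 2 days for the nephrectomized and 1 day for the sham rats, so operation and interval cannot be told apart if the labels are right.

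Glucocorticoids enter cells freely and bind the receptor encoded by Nr3c1, which moves to the nucleus and switches genes on or off. The mineralocorticoid receptor binds corticosterone, the main glucocorticoid of the rat, as well as aldosterone. In the aldosterone-sensitive distal tubule, Hsd11b2 inactivates corticosterone and so keeps that receptor for aldosterone, while Hsd11b1 mainly works in the opposite direction and regenerates active hormone. Induced genes such as Fkbp5 and Tsc22d3 are widely read as gauges of receptor activity in tissue. Hormone levels were not analysed here.

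The receptors and Hsd11b2 showed no detectable difference between nephrectomized and sham kidneys. All 6 induced genes had negative log2 fold changes, as did Nr3c2 (-0.15) and Hsd11b1 (-0.54). That of Dusp1 (-0.08) changed sign with normexp background correction, on slide 2 alone and without nephrectomized rat 2. Fkbp5 and Tsc22d3 fell after nephrectomy, to 0.601 and 0.629 of the sham level (adjusted p = 0.0403 and 0.0491 by limma). Both calls were borderline: they held in only 2 and 1 of the 8 omissions of a single rat, and not with quantile normalization. Sgk1, Zbtb16, Nfkbia and Hsd11b1 had fold changes of 0.541 to 0.744 and did not pass the threshold, an adjusted p of 0.05 over all genes tested (limma with Benjamini-Hochberg adjustment). In all, 2 of 10 members passed, both lower, where 1.02% of all genes tested were called lower, 2.57% higher and 3.59% in either direction. The median log2 fold change was -0.48 over the members and -0.00036 over all genes. At an unadjusted p under 0.05 there were 6 members, against 17.7% of all genes. All values below are log2 intensities relative to the 75th percentile of the rat's own array, so that they describe mRNA relative to the sample's other mRNA, and in whole kidney fewer cells of a type and less RNA per cell cannot be told apart.

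**Figure D1:**
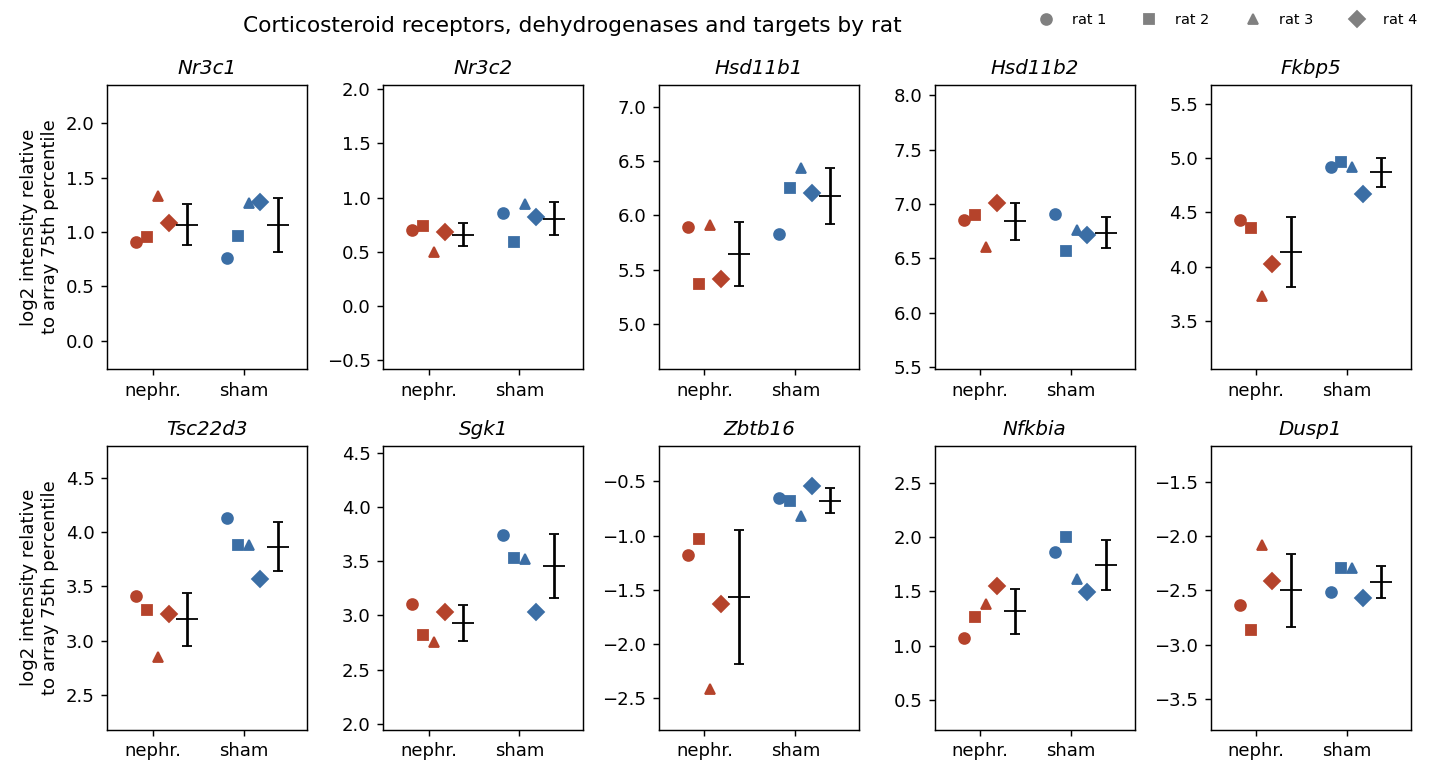
Log2 intensity relative to the array's 75th percentile (vertical axes, each spanning the same range) for the brightest probe of each gene in 4 nephrectomized (left, red) and 4 sham (right, blue) rats. Symbols mark the rat number, which does not pair rats across groups, and bars give the mean and SD. The groups do not overlap for Fkbp5, Tsc22d3 and Zbtb16.

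Nr3c1 mRNA showed no difference beyond the spread of the rats. Its brightest probe gave 0.91, 0.95, 1.33 and 1.08 in nephrectomized rats 1 to 4, and 0.77, 0.96, 1.26 and 1.27 in sham rats 1 to 4. The values of the groups overlapped throughout. Its log2 fold change was 0.0020 (SE 0.14, adjusted p = 0.996 by limma), and the 95% interval of the fold change ran from 0.803 to 1.25. The other Nr3c1 probe read -0.79, -0.81, -0.47 and -0.68 in nephrectomized rats and -0.80, -0.75, -0.58 and -0.52 in sham rats, with a log2 fold change of -0.03 (adjusted p = 0.927 in the fit of every probe).

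Nr3c2 had 0.71, 0.74, 0.50 and 0.69 in nephrectomized rats and 0.86, 0.59, 0.94 and 0.82 in sham rats. Sham rat 2 lay below 3 of the 4 nephrectomized rats, and the groups overlapped. Nephrectomized minus sham, the difference was -0.15 (SE 0.09, 95% interval -0.36 to 0.06, adjusted p = 0.461). A further Nr3c2 probe was well above background on 0 of 8 arrays and was not tested. The log2 ratio of Nr3c1 to Nr3c2 within each array averaged 0.41 ± 0.29 in nephrectomized rats and 0.26 ± 0.24 in sham rats (SD, n = 4 each), a difference within the spread of the rats (exact permutation test, two-sided, p = 0.514, adjusted p = 0.514 over the 2 ratios tested).

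Neither dehydrogenase passed the test. Hsd11b1, the enzyme that regenerates corticosterone, gave 5.89, 5.37, 5.91 and 5.41 in nephrectomized rats and 5.83, 6.25, 6.44 and 6.21 in sham rats. Sham rat 1 was the only sham rat within the nephrectomized range, and the other 3 were above it. A log2 fold change of -0.54 (SE 0.17, 95% interval -0.93 to -0.14) did not pass (adjusted p = 0.144). Its other probe gave 4.29, 4.18, 4.64 and 4.18 in nephrectomized rats and 4.50, 5.10, 5.09 and 4.93 in sham rats, again with sham rat 1 alone inside the nephrectomized range. That probe's log2 fold change was -0.59 (SE 0.16, adjusted p = 0.0938 in the fit of every probe).

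Hsd11b2, the enzyme that inactivates corticosterone, had 6.85, 6.90, 6.61 and 7.01 in nephrectomized rats and 6.91, 6.57, 6.76 and 6.71 in sham rats. The groups overlapped, and the log2 fold change was 0.11 (SE 0.10, 95% interval -0.13 to 0.34, adjusted p = 0.658). The log2 ratio of Hsd11b1 to Hsd11b2 averaged -1.20 ± 0.44 in nephrectomized rats and -0.56 ± 0.36 in sham rats (SD, n = 4 each). This difference of -0.64 did not pass (exact permutation test, two-sided, p = 0.0857, adjusted p = 0.171, smallest possible p = 0.0286). The ratio of 2 probes has no meaning as a ratio of mRNA amounts, and only its difference between groups is read. Principal cells of the collecting duct, which hold much of the kidney's Hsd11b2, were represented by 5 markers whose summed linear level was 52.0 to 62.3 in nephrectomized rats and 49.7 to 60.5 in sham rats. Aqp4 alone of the 5 was called (log2 fold change 0.61, adjusted p = 0.0253), where 2.57% of all genes were called higher. The part of cell composition in these values was not tested.

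Among the induced genes, Fkbp5 was read by 3 probes. It encodes a co-chaperone that lowers the receptor's affinity for hormone and is itself induced by the receptor. The brightest probe gave 4.43, 4.36, 3.73 and 4.02 in nephrectomized rats and 4.92, 4.97, 4.92 and 4.67 in sham rats. Every nephrectomized rat lay below every sham rat, with rat 3 lowest. On the log2 scale Fkbp5 fell by 0.73 (SE 0.16, 95% interval -1.09 to -0.38, adjusted p = 0.0403). The difference was -0.55 on slide 1 and -0.92 on slide 2, each of which carried 2 rats of each group, and with slide as a block the adjusted p was 0.0143.

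A further Fkbp5 probe read 1.84, 1.82, 1.34 and 1.45 in nephrectomized rats, against 2.58, 2.52, 2.35 and 2.19 in sham rats, and its log2 fold change was -0.80 (SE 0.14, adjusted p = 0.0193 in the fit of every probe). The dimmest of the 3 probes gave -0.62 (SE 0.18, adjusted p = 0.114), and its groups overlapped at the nephrectomized rat 2 value of 0.79 and the sham rat 4 value of 0.75. All 3 probes thus placed nephrectomized rat 3 lowest and sham rat 4 lowest in their groups. Sham rat 4 stood apart from the other sham rats on the brightest probe, and without it the log2 fold change was -0.80 (adjusted p = 0.0617).

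Tsc22d3 encodes GILZ, a leucine zipper protein through which glucocorticoids restrain inflammatory transcription factors and which aldosterone also induces in the collecting duct. It had 3.41, 3.28, 2.85 and 3.24 in nephrectomized rats and 4.13, 3.88, 3.88 and 3.57 in sham rats. The groups did not overlap, and sham rat 4 again lay closest to the nephrectomized rats. Its log2 fold change was -0.67 (SE 0.15, 95% interval -1.01 to -0.33, adjusted p = 0.0491), with -0.66 on slide 1 and -0.68 on slide 2, and with slide as a block the adjusted p was 0.0244. A dimmer probe gave -1.37, -1.60, -1.60 and -1.62 in nephrectomized rats and -0.89, -0.70, -0.88 and -1.14 in sham rats, without overlap, and its log2 fold change was -0.64 (SE 0.10, adjusted p = 0.0134 in the fit of every probe). That fit called 3 of the 16 tested member probes, all lower, and 0.901% of its 23985 probes lower and 2.34% higher (3.24% in all). In it the brighter Tsc22d3 probe missed the threshold (adjusted p = 0.0518).

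The calls of Fkbp5 and Tsc22d3 lay close to the threshold. Under the 8 omissions of a single rat, the log2 fold change of Fkbp5 ranged from -0.83 to -0.60 and its adjusted p from 0.0336 to 0.128, and it stayed past the threshold in 2, without nephrectomized rat 1 and without nephrectomized rat 3. For Tsc22d3 the ranges were -0.77 to -0.55 and 0.0405 to 0.131, and it stayed past the threshold in 1, without sham rat 4. Among the other alternatives, the call of each was lost at a threshold of 0.01, on each slide alone (adjusted p = 0.271 and 0.148 for Fkbp5, 0.315 and 0.310 for Tsc22d3 on slides 1 and 2), with the replicate block, with quantile normalization (adjusted p = 0.0519 for Fkbp5 and 0.0601 for Tsc22d3) and when probes at background were tested too (adjusted p = 0.144 for Fkbp5 and 0.168 for Tsc22d3).

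**Figure D2:**
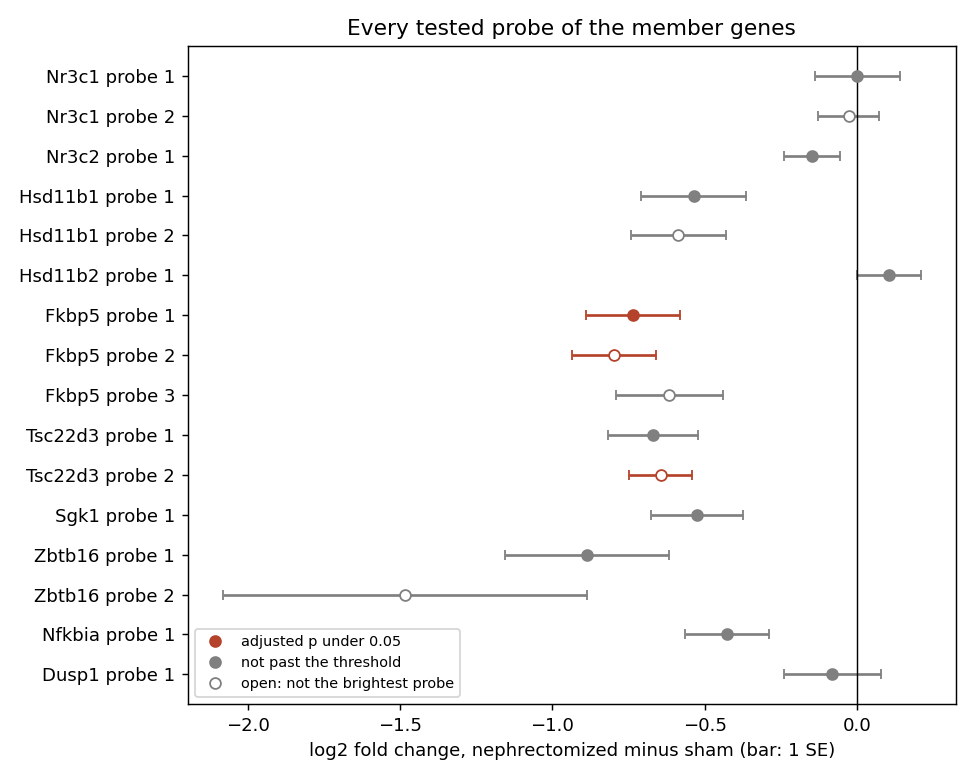
Log2 fold change, nephrectomized minus sham, with 1 SE (horizontal axis) for the 16 tested probes of the 10 genes, from the fit of every probe. Filled points are the brightest probe of a gene, open points its other probes, and red points passed an adjusted p of 0.05. Probes of 1 gene lie close together except for Zbtb16, whose dimmer probe was near background.

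Sgk1, a kinase that raises sodium channel abundance in the distal nephron and is induced by glucocorticoids and aldosterone, had 3.11, 2.82, 2.76 and 3.03 in nephrectomized rats and 3.74, 3.53, 3.52 and 3.04 in sham rats. Sham rat 4 lay within the nephrectomized range and the other 3 sham rats lay above it. Sgk1 differed by -0.53 on the log2 scale (SE 0.15, 95% interval -0.87 to -0.18, adjusted p = 0.11). Without sham rat 4 it was -0.67 and passed (adjusted p = 0.0268).

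Zbtb16 encodes PLZF, a zinc finger repressor that glucocorticoids induce in several human and rodent cell types. It gave -1.18, -1.04, -2.41 and -1.63 in nephrectomized rats and -0.66, -0.68, -0.82 and -0.55 in sham rats. The groups did not overlap, and the nephrectomized rats were widely spread (SD 0.62, against 0.11 in sham rats, n = 4 each), with rat 3 far below the rest. The log2 fold change of -0.89 (SE 0.27, 95% interval -1.50 to -0.27) did not pass (adjusted p = 0.126), and it was -0.44 on slide 1 and -1.34 on slide 2. A dimmer probe was well above background in 1 of 4 nephrectomized and 4 of 4 sham rats, entered the test only through the sham group, and gave -1.48 (SE 0.60, adjusted p = 0.253).

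Nfkbia encodes the inhibitor that holds NF-kappa-B in the cytoplasm, and both glucocorticoids and NF-kappa-B itself induce it. It had 1.07, 1.26, 1.38 and 1.55 in nephrectomized rats and 1.86, 2.00, 1.61 and 1.49 in sham rats. Nephrectomized rat 4 lay above sham rat 4, and the other values were separate. Its log2 fold change was -0.43 (SE 0.14, 95% interval -0.74 to -0.11, adjusted p = 0.147), and it differed in size between slides, with -0.77 on slide 1 and -0.09 on slide 2. The difference between slides was not tested.

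Dusp1, a phosphatase that switches off MAP kinases and that glucocorticoids, growth factors and stress all induce, gave -2.64, -2.87, -2.08 and -2.42 in nephrectomized rats and -2.52, -2.30, -2.30 and -2.57 in sham rats. Nephrectomized rats held both the lowest and the highest value. The difference of the means was -0.08 (SE 0.16, 95% interval -0.45 to 0.29, adjusted p = 0.848), with -0.34 on slide 1 and 0.18 on slide 2.

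The members did not vary together across rats in every case. Nephrectomized rat 3 was the lowest of its group for 6 of the 10 genes, among them Fkbp5, Tsc22d3, Sgk1 and Zbtb16, and the highest for Nr3c1, Hsd11b1 and Dusp1. Sham rat 4 was the lowest of its group for 5 genes (Fkbp5, Tsc22d3, Sgk1, Nfkbia and Dusp1) and the highest for Nr3c1 and Zbtb16. The groups did not overlap for 3 of the 10 members, all lower after nephrectomy, against 5.08% lower, 7.6% higher and 12.7% in all among the genes tested. Sham rat 1, whose array had the smallest share of probes well above background (54.8%, against 60.6% to 65.5% on the other 7 arrays), was the highest sham rat for Tsc22d3 and Sgk1. Without it the log2 fold change of Fkbp5 was -0.72 (adjusted p = 0.0783) and that of Tsc22d3 -0.58 (adjusted p = 0.083).

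**Figure D3:**
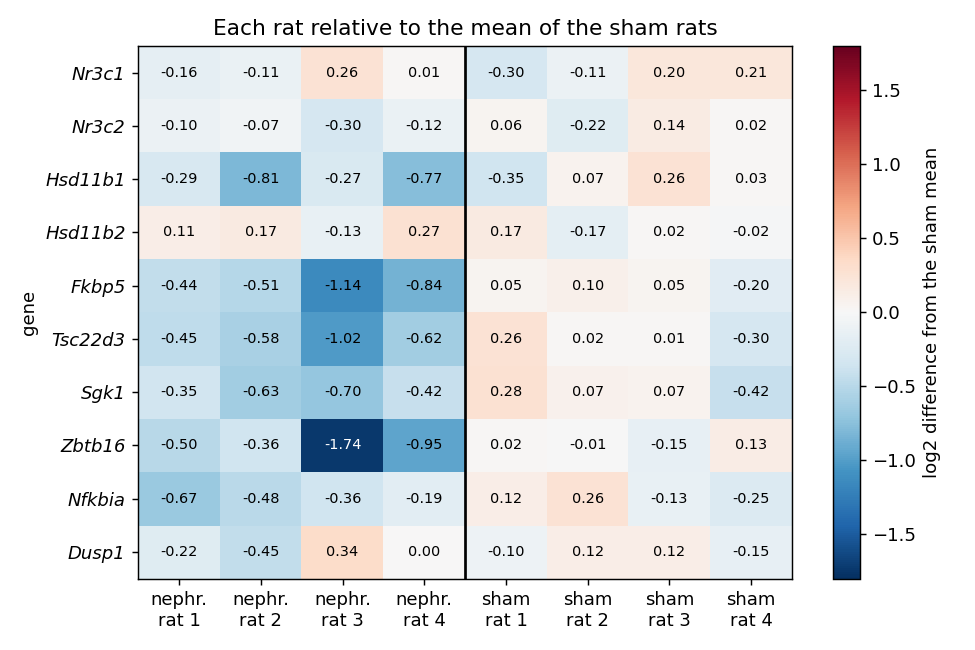
Difference of each rat from the mean of the sham rats on the log2 scale (colour and printed value) for the 10 genes (rows), with nephrectomized rats in the left 4 columns and sham rats in the right 4. Nr3c2, Hsd11b1, Fkbp5, Tsc22d3, Sgk1, Zbtb16 and Nfkbia are negative in every nephrectomized rat. Nephrectomized rat 3 is at -1.74 for Zbtb16 and -1.14 for Fkbp5.

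The genes most like Fkbp5 and Nr3c1 across rats were looked up among 9311 other named genes detected on each of the 8 arrays, by Pearson's r of log2 values centred on each group's mean. For Fkbp5 they were Irx1 (r = 0.975), Ogfrl1 (0.970) and Kif1c (0.967), and for Nr3c1 they were Ranbp2 (0.994), Mkks (0.993) and Cilp (0.991), each over 8 arrays. None of these 6 genes was called between groups (adjusted p 0.316 to 0.958). With 8 arrays and so many genes, values of r this high are a description of these arrays only.

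The glucocorticoid receptor binds a palindrome, AGAACA and TGTTCT with any 3 bases between them, or shorter versions of it, often far from the start of a gene. The 250 bases before each annotated start were read from RefSeq (GRCr8), which gave 11 starts for 6 of the 10 genes (Nr3c1, Fkbp5, Tsc22d3, Sgk1, Nfkbia and Dusp1). The windows below belong to the called genes Fkbp5 and Tsc22d3 and, beside them, to Nfkbia and Dusp1, which answer to other signals as well. For Tsc22d3 only the window that held the palindrome's core was printed, and its other windows held none of the motifs marked. They are printed 5′ to 3′ in the direction of the gene, and capitals mark every match to one of 4 motifs on either strand: the receptor palindrome's core ACANNNTGT, the cyclic AMP response element TGACGTCA, the E-box CACGTG and the NF-kappa-B motif, GGG and TTTCC with any 2 bases between them.
Fkbp5 (GRCr8 chr20:6543556-6543805, minus strand): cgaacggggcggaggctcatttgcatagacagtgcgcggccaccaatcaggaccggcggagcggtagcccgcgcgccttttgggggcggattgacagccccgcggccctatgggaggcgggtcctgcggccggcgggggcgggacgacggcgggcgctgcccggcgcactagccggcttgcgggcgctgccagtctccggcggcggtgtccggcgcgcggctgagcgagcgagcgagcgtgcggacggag
Tsc22d3 (GRCr8 chrX:109065431-109065680, minus strand): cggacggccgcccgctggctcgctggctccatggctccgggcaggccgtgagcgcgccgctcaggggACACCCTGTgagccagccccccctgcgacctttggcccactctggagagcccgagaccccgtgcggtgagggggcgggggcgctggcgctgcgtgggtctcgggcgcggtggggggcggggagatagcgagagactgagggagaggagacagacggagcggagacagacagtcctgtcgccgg
Nfkbia (GRCr8 chr6:78597073-78597322, minus strand): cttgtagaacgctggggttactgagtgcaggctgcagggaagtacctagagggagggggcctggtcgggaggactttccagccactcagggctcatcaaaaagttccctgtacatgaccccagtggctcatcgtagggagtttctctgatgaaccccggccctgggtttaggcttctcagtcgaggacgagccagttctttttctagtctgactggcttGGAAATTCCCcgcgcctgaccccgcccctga
Dusp1 (GRCr8 chr10:17184603-17184852, plus strand): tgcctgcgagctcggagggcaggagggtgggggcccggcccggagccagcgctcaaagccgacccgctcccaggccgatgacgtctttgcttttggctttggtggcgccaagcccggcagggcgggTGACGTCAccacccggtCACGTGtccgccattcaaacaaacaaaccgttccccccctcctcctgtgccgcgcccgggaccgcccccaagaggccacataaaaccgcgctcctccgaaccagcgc

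None of the 11 windows held the whole palindrome, which was in 0.012% of 33469 RefSeq promoter windows of the same length, or the hexamer TGTTCT, which was in 17.5%. The core, which lies inside the palindrome, occurred in 1 of the 3 Tsc22d3 windows, 183 bases before the start, and in 5.81% of all windows. Fkbp5 held none of these motifs in its window. Nfkbia held the NF-kappa-B motif on the opposite strand 31 bases before its start (1.3% of all windows). Dusp1 held the cyclic AMP element 124 bases before the start (1.59% of all windows) and an E-box 107 bases before it (5.59%). A match is a description of these letters and not a bound site.

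Further genes that glucocorticoids induce in various cell types were taken as a list of 30, of which 23 were measured. Like the members and the other lists, it was chosen with earlier results of these data known. Its counts beside the shares over all genes are therefore a description only. In nephrectomized kidneys 5 of the 23 fell and none rose, against 1.02% lower among all genes. Of the 23, 20 had a negative log2 fold change, where 50.1% of all genes did, and the median was -0.16. Klf9, a transcription factor (-0.49), the metallothioneins Mt2A (-0.54) and Mt1 (-0.50), the clock gene Per1 (-1.29) and Errfi1 (-0.69) passed, with adjusted p between 0.00500 and 0.0465. The metallothioneins are closely similar in sequence, and a probe of one may also read the other. Errfi1, which encodes an inhibitor of the EGF receptor, had 5.47, 5.88, 5.77 and 5.95 in nephrectomized rats and 6.48, 6.35, 6.63 and 6.37 in sham rats, without overlap (SE 0.12, adjusted p = 0.0157). Klf9 had 3.95, 4.06, 3.89 and 4.03 in nephrectomized rats and 4.41, 4.48, 4.57 and 4.44 in sham rats, without overlap. Per1 had -1.92, -2.14, -2.76 and -2.15 in nephrectomized rats and -0.38, -0.89, -0.82 and -1.71 in sham rats, without overlap, and under the omission of single rats its adjusted p ran from 0.0127 to 0.131, under the threshold in 1 of 8, without sham rat 4. It was also lost with normexp background correction (-0.94, adjusted p = 0.0588). Errfi1 (adjusted p = 0.0523) and Mt1 (adjusted p = 0.0528) each lost the call in 1 of 8, without sham rat 3. Cebpb (-0.67, adjusted p = 0.0545) and Cebpd (-0.66, adjusted p = 0.0566), which were singled out after their values were seen, missed it. With every probe kept, however dim, 1 of 27 was called, Klf9.

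Of the inflammatory genes that glucocorticoids repress, 6 of 14 were measured and none was called, where 3.59% of all genes were called in either direction. Il1b, a cytokine, was at 0.44 on the log2 scale (adjusted p = 0.282) and Ccl2, a chemokine, 0.72 (adjusted p = 0.305). Il6, Tnf, Nos2, Ptgs2 and Csf2 were not well above background on any array. The inhibitors and subunits of NF-kappa-B other than Nfkbia gave 0 calls among 9 measured, with Tnip1 at -0.23 (adjusted p = 0.161) and Nfkbib at -0.13 (adjusted p = 0.364). Tnip1 passed in 1 of 23 alternative settings (adjusted p = 0.0465).

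The machinery of the receptors showed 0 calls, where 3.59% of all genes were called in either direction. At that share, 0 calls in lists this short are not a result about them. Among 13 measured chaperones and co-chaperones that fold the receptor, the median log2 fold change was 0.0044. Those with the smallest p were Dnaja1 (-0.32, adjusted p = 0.102) and Hspa8 (-0.20, adjusted p = 0.222). Dnaja1 passed with array weights (adjusted p = 0.011), a setting that called 2386 of all genes. Among 12 coregulators the median was 0.0058. Nr0b2, an orphan receptor that represses other nuclear receptors, was at 0.29 (adjusted p = 0.0755). Its adjusted p fell to 0.0436 with a slide term, 0.0471 without sham rat 1 and 0.0472 with normexp background correction. It was 0.0486 with trended robust variances and 0.0175 with array weights. Smarca4, a chromatin remodeller, was at 0.12 (adjusted p = 0.489). Esr1, an estrogen receptor, was dim, and was well above background in 4 of 4 nephrectomized and 3 of 4 sham rats. It thus entered the test only through the nephrectomized group, and was at -0.42 (adjusted p = 0.063). It was at -0.08 with normexp background correction (adjusted p = 0.611) and passed with quantile normalization (adjusted p = 0.0393), with array weights (adjusted p = 0.00751) and without sham rat 1 (adjusted p = 0.0114).

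Among genes of steroid metabolism and transport, calls were made in both directions. Srd5a1, a steroid 5-alpha-reductase that begins the breakdown of corticosterone and activates testosterone, was 1.44-fold higher in nephrectomized kidneys. It had -0.26, -0.55, -0.31 and -0.47 in nephrectomized rats and -0.69, -1.10, -0.98 and -0.93 in sham rats, without overlap (log2 fold change 0.52, SE 0.10, adjusted p = 0.0317). Por, which passes electrons to the microsomal cytochrome P450 enzymes, had 2.81, 2.93, 2.99 and 2.72 in nephrectomized rats and 3.29, 3.38, 3.28 and 3.13 in sham rats. It fell, with a log2 fold change of -0.41 (SE 0.08, adjusted p = 0.0331). These were 1 rise and 1 fall among 10 measured genes, where 2.57% of all genes were called higher and 1.02% lower, and the median was -0.19. With every probe kept, neither passed (adjusted p = 0.130 for Srd5a1 and 0.140 for Por). Each lost its call in 6 of the 8 omissions of a single rat (adjusted p up to 0.104 for Srd5a1 and 0.105 for Por), and kept it without sham rat 1 or nephrectomized rat 2 for Srd5a1 and without sham rat 4 or nephrectomized rat 3 for Por.

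Genes of sodium and potassium transport that aldosterone regulates gave 0 calls among 17 measured, where 3.59% of all genes were called. Their median was 0.05. The 3 subunits of the epithelial sodium channel, Scnn1a, Scnn1b and Scnn1g, named as a complete complex, had log2 fold changes of 0.05, 0.05 and 0.15. Usp2, a deubiquitinase that is also under the clock, was at -0.78 (adjusted p = 0.102). It passed in 3 of 23 alternative settings, among them a slide term (adjusted p = 0.0375) and without nephrectomized rat 1 (adjusted p = 0.0478). Stk39, a kinase that activates sodium chloride cotransport, was at 0.14 (adjusted p = 0.426). Nr3c2, Hsd11b2, the channel subunits and the kinase Sgk1 (-0.53) all missed the threshold, and differences between these genes were not tested.

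Dusp1 was compared with other members of its enzyme family and with immediate early genes. Dusp9, a phosphatase of cytoplasmic MAP kinases, rose 1.48-fold and was the only call among 7 measured family members. Among all genes tested, 2.57% were called higher and 3.59% in either direction. It had 0.75, 0.84, 0.64 and 0.59 in nephrectomized rats and 0.02, 0.12, 0.17 and 0.24 in sham rats (log2 fold change 0.57, SE 0.08, adjusted p = 0.00614), without overlap. Of 15 immediate early genes none was called, beside the same 3.59% of all genes. Atf3 (0.37, adjusted p = 0.12) and Myc (-0.38, adjusted p = 0.167) had the smallest p.

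**Figure D4:**
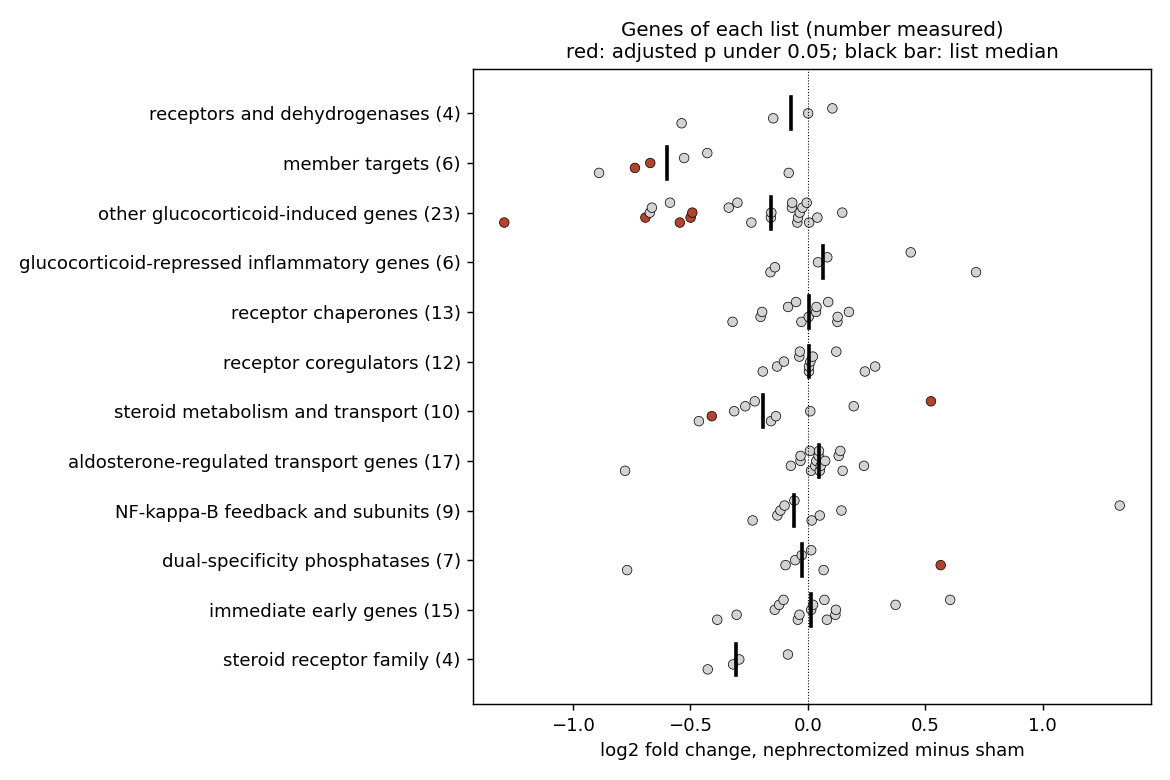
Log2 fold change, nephrectomized minus sham (horizontal axis), for each measured gene of 12 lists, with the number measured in brackets. Red points passed an adjusted p of 0.05 and black bars mark list medians. Medians were -0.60 for the 6 induced member genes and -0.16 for the other induced genes. They were -0.30 for the 4 genes of the steroid receptor family, -0.19 for steroid metabolism and transport, and near 0 for chaperones and coregulators.

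Markers placed the tissue and its cell types. All 8 proximal tubule markers were measured and none was called, where 3.59% of all genes were called. Their summed linear level was 866 to 906 in nephrectomized rats and 863 to 928 in sham rats. Leukocyte markers summed to 23.1 to 28.9 in nephrectomized rats and 21.3 to 25.6 in sham rats, with Itgam and Cd163 not well above background on any array and 0 of 5 measured called. Of the adrenal cortex, which lies on the kidney, Cyp11b1, Cyp11b2, Cyp21a1 and Mc2r were not well above background on any array. Cyp17a1 was well above background in 4 of 4 nephrectomized and 3 of 4 sham rats and so entered the test only through the nephrectomized group, where it was higher (log2 fold change 0.54). The 6 adrenal markers with a probe, most of them at background, summed to 0.176 to 0.225 in nephrectomized rats and 0.136 to 0.178 in sham rats, which is no measure of adrenal tissue. The part of these markers in the members' values was not tested.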

How the data were processed

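Total RNA of 8 kidneys was labelled with Cy3, per the labels, and hybridised to 1-colour Agilent arrays of design 014879. Per the file headers, the authors used Agilent Feature Extraction 10.5.1.1, and the deposited spot intensity is linear, background-subtracted within each array and without scaling across arrays. A deposited table of log2 values (30448 probes; column medians -0.0169 to 0.0152) tracked the scanner values scaled to the 75th percentile and centred by probe (r = 0.9999 over probes). What decided its probes is not stated in these sources.

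Here control spots and outlier spots were removed, log2 processed intensities were averaged per probe, and the 75th percentile over gene probes was subtracted. A probe was kept if every array of 1 group or of both read it well above background (23985 of 41012), and the brightest probe stood for a gene. Probes were named by RefSeq accession through the GRCr8 gene table (18713 of 41012 matched, 14400 symbols), and others kept their accession. Names rest on the accession alone, the array's annotation build (rn4) differs from GRCr8, and 22299 probes have no symbol here. limma 3.58.1 in R 4.3.3 compared the groups without covariates (lmFit, eBayes, two-sided, Benjamini-Hochberg adjustment over all genes, threshold 0.05). It was tested on simulated data first. A member's other probes were read from a fit of every probe. Ratios of 2 members were compared by exact permutation of the 8 rats, an analysis added after the data were seen. Summed marker levels are linear intensities in units of the array's 75th percentile. No probe was saturated. The labels number the samples 1 to 4 in each group, and p-values weigh the group difference against the spread between these samples.

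The members and gene lists were chosen with earlier results of these data known. Named list genes are those that passed, or the 2 with the smallest p where none did, and 1 gene that meets this rule is not reported here. The fit was repeated with quantile normalization, median scaling, normexp (offset 50, on the median spot signal, since the mean is not in the columns used), the deposited values, no filter, probes detected on each of the 8 arrays, averaged probes per gene, every probe, trended robust variances, array weights, a threshold of 0.01, replicate number or slide as a block, each slide alone and each rat left out.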

Additional observations from a re-analysis of the deposited data

Results flagged for a closer look

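Among the 20 groups of 4 values examined (10 genes in 2 groups), 1 sample stood far from the others of its group. Sham rat 4 had a Fkbp5 value of 4.67, against 4.92 to 4.97 in the other 3 sham rats, a gap of 0.838 of the group's range, which is above Dixon's 95% critical value. Chance alone marks about 1 in 20 such groups. Its value still lay above those of the 4 nephrectomized rats.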

How the results depend on the processing

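Of the members, 2 passed in the reported fit. The number was 0 with quantile normalization, 0 without the filter on dim probes, 0 at an adjusted p under 0.01, 0 with the replicate block, 0 on slide 1 alone and 0 on slide 2 alone. With every probe on its own it was 1, Fkbp5, counting only the brightest probe of each gene. The dimmer Tsc22d3 probe also passed in that limma fit (adjusted p = 0.0134). The number was 0 to 2 when single rats were left out. In these settings limma gave 4 to 7 members at an unadjusted p under 0.05. Over all genes the count at that cut ran from 1633 on slide 1 alone (5 members) to 3964 without sham rat 1 (6 members), of 19868 tested. The count over all genes, 714, became 282 without the filter, 2386 with array weights, 260 at an adjusted p under 0.01, 296 with the replicate block, 0 on slide 1 (1633 at an unadjusted p under 0.05) and 142 on slide 2, and it ranged from 341 to 720 without single rats. It was 458 without nephrectomized rat 2, 342 without nephrectomized rat 4, 396 without sham rat 2, 341 without sham rat 3 and 427 without sham rat 4. With 2 rats a group, each slide alone has fewer samples. Samples with the same replicate number did not deviate together (r from -0.0176 to 0.103 for the 4 numbers), so the numbers were not taken as pairs. Under the replicate block the adjusted p of Fkbp5 was 0.0742 and that of Tsc22d3 0.0791, and calls were also lost for Errfi1 (0.0742), Mt2A (0.0742), Mt1 (0.0844), Per1 (0.0843), Por (0.0532) and Dusp9 (0.0575). On each slide alone none of the calls of members and of the named pathway genes held. The log2 fold changes of Fkbp5 (-0.92 to -0.55) and Tsc22d3 (-0.77 to -0.55) kept their sign under all 23 alternatives, as did those of Hsd11b1, Sgk1, Zbtb16 and Nfkbia. Near 0, the sign of Nr3c1 changed with normexp (-0.0036), the mean of its probes (-0.013), array weights (-0.12) and slide 2 alone (-0.064), and ranged from -0.098 to 0.071 without single rats. That of Dusp1 changed with normexp (0.018) and slide 2 alone (0.18) and ranged from -0.22 to 0.042 without single rats, and that of Smarca4 changed on slide 1 alone (-0.051). The cause was not tested. Array weights alone brought Hsd11b1 past the threshold (-0.77, adjusted p = 0.0123). Dim probes, such as those of Dusp1 and the lesser Zbtb16 probe, lie nearest to background and are the least certain.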
